A study of Mus musculus with 2 samples.

Results

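Megakaryocyte lineage barcodes were picked out of 2 droplet single-cell libraries of mouse bone marrow and were chosen by their measured UMI counts of 4 genes. A UMI (unique molecular identifier) marks 1 captured RNA molecule, and a barcode marks 1 droplet, usually 1 cell. A barcode counted as a member when it had at least 1000 UMIs, under 10% mitochondrial UMIs, at least 2 UMIs of Pf4, at least 2 of Itga2b, Gp9 and Gp1bb together, and under 5% of its UMIs from the neutrophil genes S100a8 and S100a9. This gave 101 members among 23794 barcodes that passed the UMI and mitochondrial limits (the kept barcodes): 52 of 13251 in the control library and 49 of 10543 in the MYC library.

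The control library came from primary hematopoietic cells of the genotype Mx1Cre+/-;Rosa26+/+, and the MYC library from Mx1Cre+/-;Rosa26LSL-MYC/LSL-MYC. Both genotypes therefore carried Mx1-Cre, a recombinase under an interferon-inducible promoter that acts in many hematopoietic and some other cells, and the MYC transgene sat behind a stop cassette that the recombinase removes. The series compared marrow gene expression after MYC was overexpressed in hematopoietic stem cells. The labels used here give no age, number of animals or inducing treatment. There was 1 library per group, so no difference between genotypes could be tested, and genotype, animal, preparation and sequencing run cannot be told apart. All intervals are at 95% and cover counting error only.

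Megakaryocytes are the marrow cells that make platelets. Their precursors express Kit and Cd34 and divide, then replicate DNA without dividing, and finally fill with granules, receptors and cytoskeletal proteins that the platelets will carry. Gata1, Fli1, Runx1 and Nfe2 are among the transcription factors known to direct this programme. Very large megakaryocytes are fragile, and droplet instruments load them poorly.

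Of the genes that chose the members, Pf4 encodes platelet factor 4, an alpha granule chemokine, Itga2b the alpha chain of the fibrinogen receptor, and Gp9 and Gp1bb subunits of the von Willebrand factor receptor. Gp1ba and Gp5, which the rule did not use, encode the other subunits of that receptor. The 250 bases before the RefSeq start (GRCm38.p6) of Pf4, Gp9, Gp1ba and Gp5 are shown 5′ to 3′ on the gene's own strand, because the receptor's genes are described together below and these windows hold no annotated exon of GENCODE vM21. Capitals mark motifs found by letter search on either strand. The GATA-type motifs were AGATAA, the form that begins with another base, TGATAA, and the form that ends with another base, AGATAG. The ETS-type motifs were AGGAAG and the form that begins with another base, CGGAAG. Motifs that share letters were both counted. The Pf4 window is at chr5:90772185-90772434 (plus strand), that of Gp9 at chr6:87777820-87778069 (plus), that of Gp1ba at chr11:70638872-70639121 (plus) and that of Gp5 at chr16:30310782-30311031 (minus).
Pf4: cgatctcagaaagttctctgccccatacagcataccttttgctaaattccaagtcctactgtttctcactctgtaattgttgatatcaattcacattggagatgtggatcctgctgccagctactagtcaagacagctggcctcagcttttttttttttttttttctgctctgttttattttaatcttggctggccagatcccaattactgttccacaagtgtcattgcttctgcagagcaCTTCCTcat
Gp9: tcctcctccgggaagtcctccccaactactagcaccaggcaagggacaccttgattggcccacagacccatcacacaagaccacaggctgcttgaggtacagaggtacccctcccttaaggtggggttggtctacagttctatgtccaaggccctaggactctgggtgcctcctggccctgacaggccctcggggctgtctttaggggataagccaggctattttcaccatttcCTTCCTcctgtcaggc
Gp1ba: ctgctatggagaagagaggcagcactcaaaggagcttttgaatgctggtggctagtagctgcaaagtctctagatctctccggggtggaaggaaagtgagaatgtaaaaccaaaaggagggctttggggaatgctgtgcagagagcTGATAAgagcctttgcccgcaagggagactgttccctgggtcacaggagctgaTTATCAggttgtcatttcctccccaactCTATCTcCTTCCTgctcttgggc
Gp5: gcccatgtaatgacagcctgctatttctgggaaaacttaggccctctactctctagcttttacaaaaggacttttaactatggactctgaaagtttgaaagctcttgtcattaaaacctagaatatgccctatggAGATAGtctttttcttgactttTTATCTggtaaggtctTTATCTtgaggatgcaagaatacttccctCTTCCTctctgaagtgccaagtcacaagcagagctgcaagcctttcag
Gp1ba and Gp5 each held 3 GATA-type and 1 ETS-type motif, while Pf4 and Gp9 held 1 ETS-type motif and no GATA-type motif in this window. Across 32851 RefSeq starts, 22.3% of such windows held a GATA-type motif, 39.2% an ETS-type motif and 7.68% both. All 4 rule genes had an ETS-type motif, and of the 11 late platelet genes with an entry 5 had a GATA-type motif, 4 an ETS-type motif and 2 both. A match of letters describes the sequence and is not evidence of binding.

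Megakaryocyte lineage barcodes were rare in both libraries. Members were 0.392% of kept barcodes in the control library (0.293 to 0.514, Clopper-Pearson) and 0.465% in the MYC library (0.344 to 0.614). The difference of 0.0723 percentage points had a Newcombe interval from -0.0992 to 0.252, which included 0. Control members contributed 1441744 UMIs and MYC members 962040, and they held 90.0% and 87.6% of all Pf4 UMIs of the kept barcodes. Pf4 was found in 3.90% of 1410 control B lineage barcodes (median 6077 UMIs) and 3.94% of 355 in the MYC library (median 8717), which should lack it. All members had it by the rule, at a median depth of 21910.5 UMIs for control members and 13375 UMIs for MYC members. No member's barcode sequence was found in both libraries, although 41 kept barcodes shared one.

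The rule has thresholds, and few members lay at them. In the control library 2 members had exactly 2 Pf4 UMIs and 1 had exactly 2 UMIs of the other genes, against 4 and 5 in the MYC library. Just outside, 17 control and 15 MYC barcodes missed by having 1 Pf4 UMI, 13 and 7 by having 1 UMI of the partner genes, 8 and 4 by their S100a8 and S100a9 share alone, and 3 and 11 by their mitochondrial share alone. Pf4 reached 10 or more UMIs in 41 of 52 control and 39 of 49 MYC members.

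The feature named MYC, whose sequence is not given in the sources used here, was checked first against the genotype labels. It had 0 UMIs in all 17073 control barcodes, kept or not, and 312 UMIs (3.04 CPM, counts per 1000000 UMIs of the set) in the kept MYC barcodes that were not members. In the MYC members it had 0 UMIs, which allows up to 3.12 CPM, and up to 6.12% of barcodes with a UMI (3 counts of the total in each case), so a level like that of the other barcodes was not detectable at this depth. The mouse Myc gene had 65 UMIs in 20 of 52 control members (45.1 CPM, 34.8 to 57.5) and 68 UMIs in 22 of 49 MYC members (70.7 CPM, 54.9 to 89.6). Its log2 ratio, MYC over control library, was 0.65 (0.14 to 1.16), and 0.48 without the 1 MYC barcode that held most of its UMIs. In early erythroid barcodes the Myc ratio was 0.80, in stem or progenitor barcodes -0.08 and over all other kept barcodes -0.16. Mycn, a relative of Myc that was singled out after its values were seen, was 34.7 CPM in control and 56.1 CPM in MYC members, against 0.513 and 0.234 CPM in all other kept barcodes.

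Members fell along a range from deep, early barcodes to shallow ones rich in platelet transcripts. The late platelet share is the percentage of a barcode's UMIs that came from 16 platelet genes the rule did not use (Ppbp, Tubb1, Gp5, Gp6, Gp1ba, Treml1, Clec1b, Alox12, Mmrn1, Nrgn, Clu, Vwf, Thbs1, Itgb3, P2ry12 and Rgs18). It was under 1% in 37 control and 34 MYC members, called early here, and between 1% and 5% in 15 and 15, called late here. No member reached 5%. These are ranges of a score and not cell types: 4 control and 3 MYC members lay between 0.8% and 1.25%. The late members were 28.8% of the control (17.1 to 43.1) and 30.6% of the MYC members (18.3 to 45.4).

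**Figure D1:**
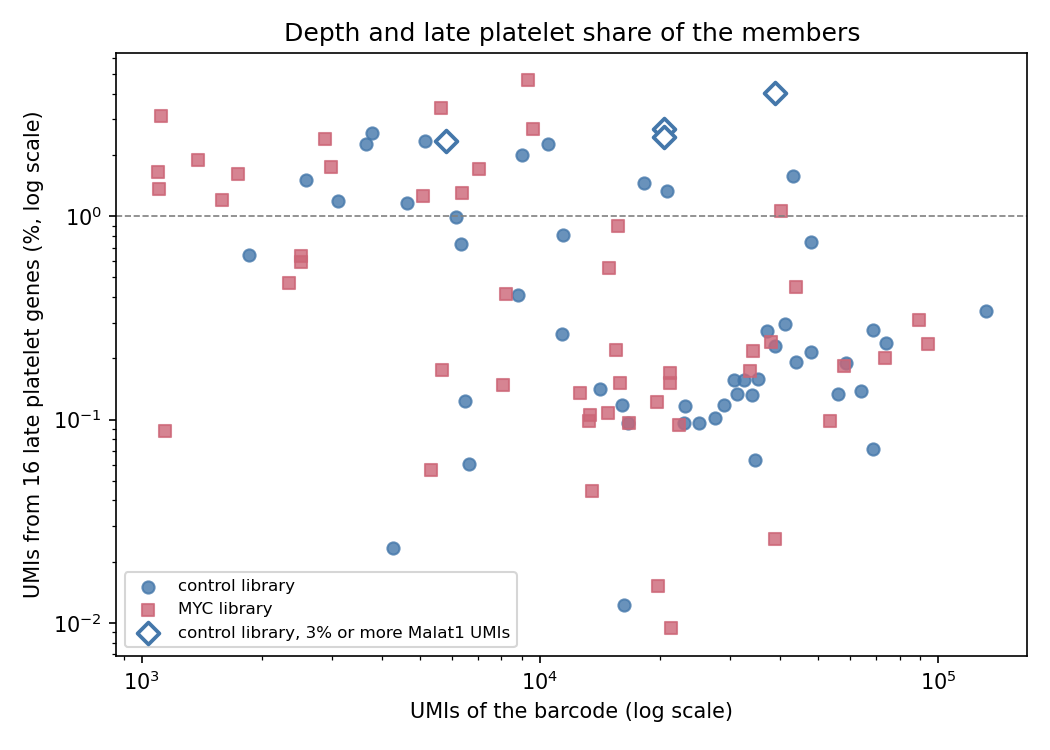
Each point is 1 member, with its UMIs on a log x axis and its late platelet share (%) on a log y axis; circles and diamonds are the control library and squares the MYC library. The dashed line is at 1%: 15 members of each library lie above it, and the late MYC members reach further to the left than the late control members, with 8 against 1 under 3000 UMIs.

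Early members were the deep ones. Their median depth was 30636 UMIs in the control (1855 to 131919) and 16274 in the MYC library (1141 to 94394), while late members had medians of 9018 (2590 to 43077) and 2987 (1096 to 40251). The ranges of all 4 sets overlapped. Kit or Cd34 UMIs were present in 27 of 37 early control and 20 of 34 early MYC members but in only 1 of 15 late members of each library. The proliferation marker Mki67 was detected in 32 of 37 and 24 of 34 early members, and in 2 of 15 and 6 of 15 late members. Depth affects such shares. At an equal depth of 1000 UMIs the expected number of members with a Kit UMI, computed exactly from the counts, was 2.28 of 37 and 1.92 of 34 early members, and 0 of 15 late ones in each library. The expected number with Mki67 was 15.5 of 37 early and 0.818 of 15 late control members. In the MYC library it was 6.71 of 34 early (19.7%) and 3.92 of 15 late members (26.1%). That order went against the Mki67 level there (454 CPM early, 82.3 CPM late), so no order was read from the MYC shares. In 1 random draw of 1000 UMIs per member the median late platelet share was 1.9% in control and 1.7% in MYC late members, and 0.2% and 0.1% in early members.

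Late and early members differed widely in both libraries, in genes that depend on the score itself and in many that do not. Among 2531 genes with enough UMIs, 185 (7.31%) were at least 2-fold higher in late than in early members of both libraries and 843 (33.3%) at least 2-fold lower. Without the 4 Malat1-rich control members described below these were 187 (7.41%) and 623 (24.7%) of 2524. Enough UMIs meant at least 50 over early and late members together, and early members held 85.4% of the control and 89.9% of the MYC members' UMIs. Genes high in early members thus entered more easily. Members were also ordered by transcripts of the same cells, so these are descriptions. Cytoskeletal genes, which build the contractile and microtubule systems of platelets, were higher in 17 of 24. Myl9, the myosin light chain of platelets, stood at 13.8 CPM in early and 685 CPM in late control members, and at 9.25 and 1563 CPM in the MYC library. A single MYC barcode held 69.7% of the late MYC UMIs of Myl9, and without it the late level was 807 CPM. Tpm4, a tropomyosin, stood at 158 and 1988 CPM in the control and at 184 and 2797 CPM in the MYC library.

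Growth genes went the other way. All 28 S phase genes and 32 of 42 genes of a MYC-induced list (nucleolar, chaperone and nucleotide genes) were at least 2-fold lower in late members of both libraries, and without the Malat1-rich members described below 28 and 31 were. Nop58, a nucleolar protein, stood at 274 CPM in early and 9.51 CPM in late control members, and at 259 and 10.3 CPM in the MYC library. Hspd1, a mitochondrial chaperone, stood at 501 and 33.3 CPM in the control and at 469 and 41.1 CPM in the MYC library. The late levels rest on few molecules, with 2 and 1 UMIs of Nop58 and 7 and 4 of Hspd1.

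A group of 4 late control members stood apart from every other member. Malat1, a long non-coding RNA that stays in the nucleus, made up 4.08% to 20.05% of their UMIs, while the other 48 control members had at most 2.45% and the 49 MYC members at most 2.26%. The 4 had 0.229% to 0.705% of UMIs from ribosomal protein genes, below the 1.13% of the lowest other control member and the 1.91% of the lowest MYC member. They held 85732 UMIs, which was 40.8% of the UMIs of late control members and 5.95% of all control members. Among kept barcodes that were not members, 11 of 13199 in the control and 0 of 10494 in the MYC library had at least 3% Malat1 together with under 1% ribosomal protein UMIs. At least 3% Malat1 alone was found in 1084 (8.21%) of those control and 287 (2.73%) of those MYC barcodes. These Malat1-rich barcodes were noticed in these data, and the 3% limit lies in the gap between them and the rest.

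**Figure D2:**
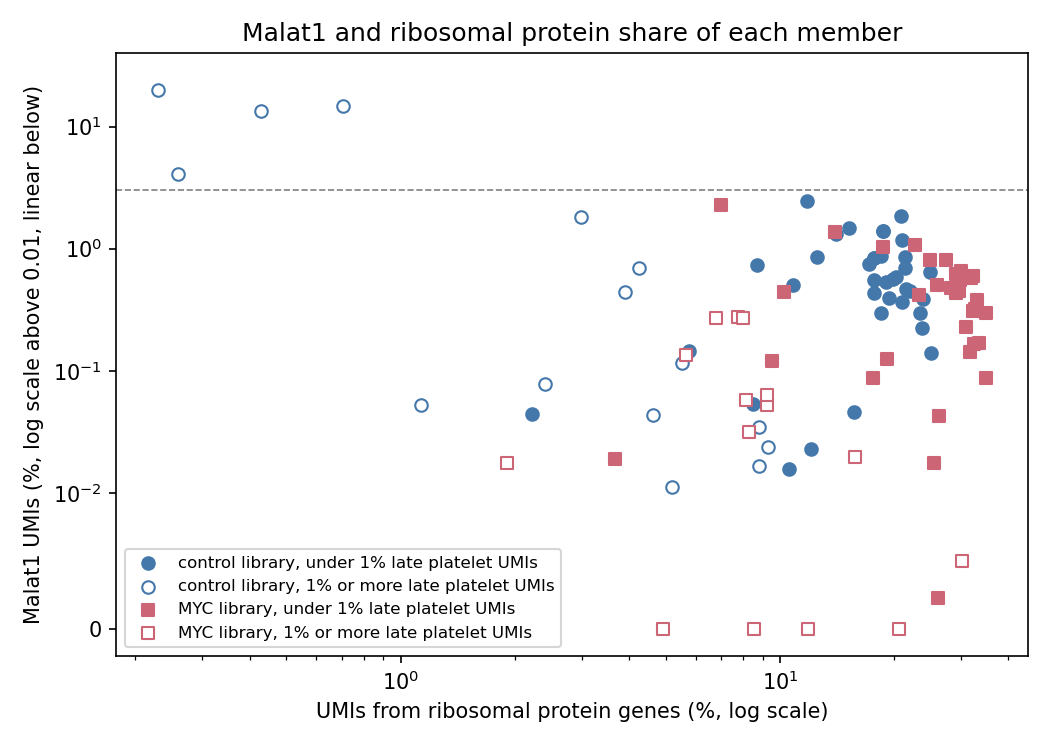
Each point is 1 member, with its share of ribosomal protein UMIs (%) on a log x axis and its share of Malat1 UMIs (%) on a y axis that is log above 0.01 and linear below; open symbols are late members, blue is the control library and red the MYC library. The 4 control members above the dashed 3% line have 0.229% to 0.705% ribosomal protein UMIs, and no MYC member lies near them.

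The Malat1-rich barcodes carried several, but not all, receptors of mature platelets at high levels. Gp6, P2ry12, Gp1ba, Gp5 and Ppbp belong to the late platelet score that made these barcodes late, and Pf4, Gp9 and Gp1bb to the rule. Their levels are given as a description. Itga6, the laminin receptor's alpha chain, stood at 8445 CPM in them (7841 to 9083), against 498 CPM (382 to 638) in the 11 other late control members and 823 CPM (652 to 1024) in the 15 late MYC members. Gp6, the collagen receptor, stood at 1598 CPM, against 265 and 216 CPM. Cd226, an adhesion receptor, stood at 2823 CPM, against 329 and 309 CPM. P2ry12, the ADP receptor that antiplatelet drugs block, had 65 UMIs in the 4 barcodes (758 CPM), 2 UMIs in the other late control members and 2 in the late MYC members. Transcripts that did not follow this pattern were Ppbp, a granule chemokine, at 1855 CPM against 6431 and 5348 CPM, and Pf4 itself at 3791 CPM against 14452 and 19241 CPM. Subunits of the von Willebrand factor receptor were split, with the rule genes low and the score genes high. Gp9 stood at 222 CPM (19 UMIs), against 610 and 1625 CPM, and Gp1bb at 23.3 CPM (2 UMIs), against 193 and 411 CPM. Gp1ba stood at 1073 CPM, against 337 and 278 CPM, and Gp5 at 2065 CPM, against 490 and 298 CPM.

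Some regulators, picked here for their values, were high in the same barcodes. Nfe2, a factor for platelet release, stood at 1703 CPM in the Malat1-rich barcodes, at 289 CPM in the other late control members and at 165 CPM in late MYC members. Gata2, a factor of early precursors, stood at 1131 CPM, against 48.2 and 30.9 CPM. Klf6, an immediate early factor, stood at 1096 CPM, against 48.2 and 30.9 CPM. Neat1, another nuclear non-coding RNA, stood at 10906 CPM, against 112 and 30.9 CPM. Kit had 0 UMIs in all 3 late sets.

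**Figure D3:**
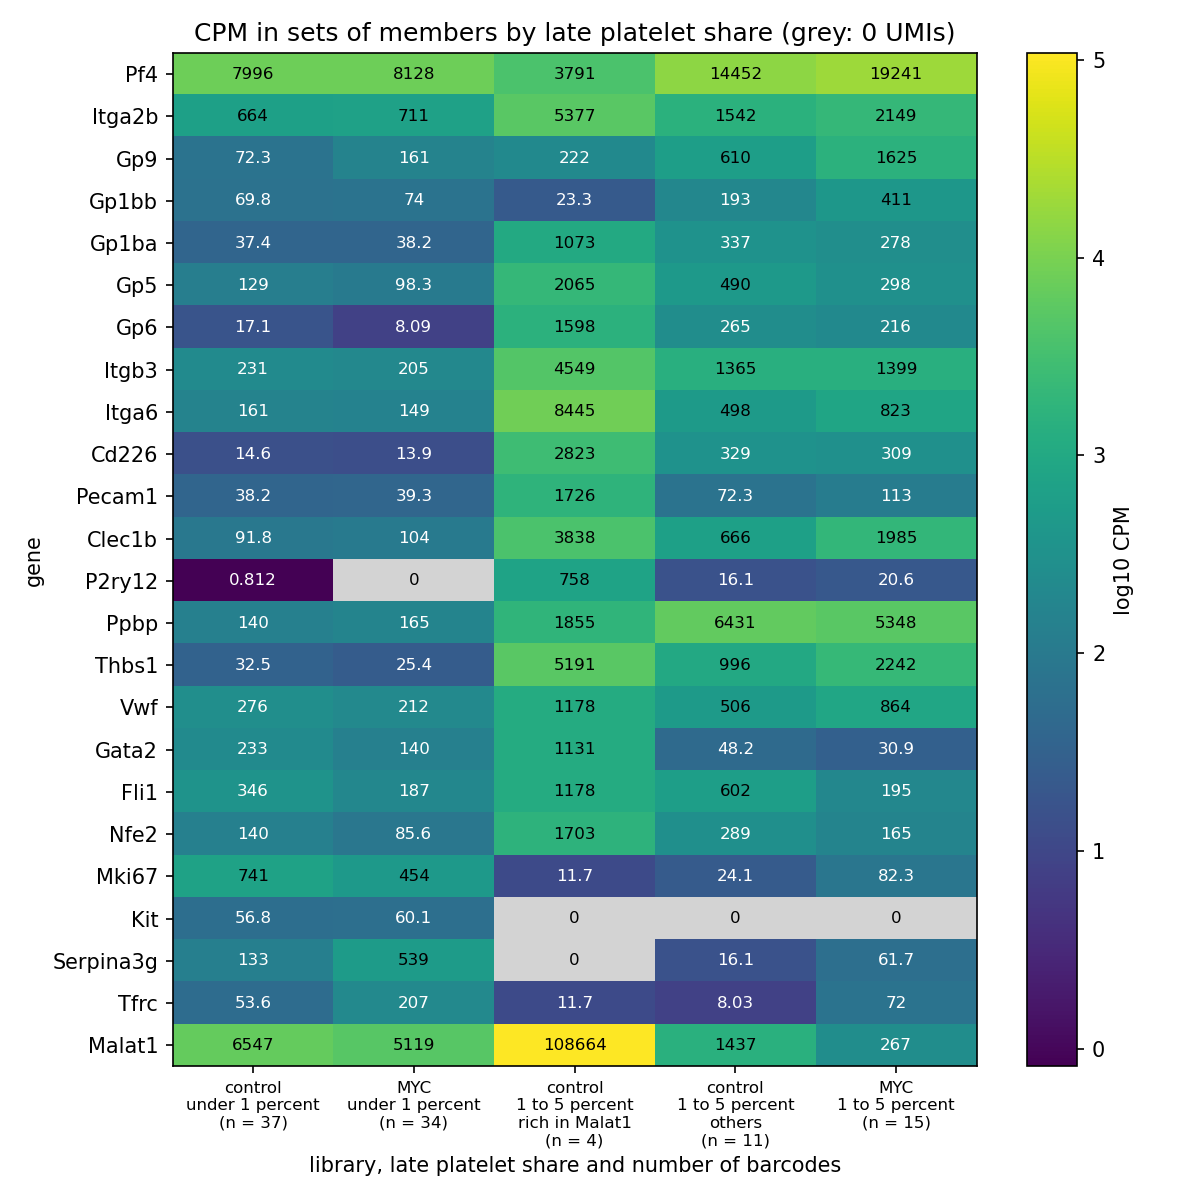
Each cell gives the CPM of a gene (rows) over the summed UMIs of a set of members (columns), coloured on a log10 scale, with grey for 0 UMIs. The third column, the 4 Malat1-rich control members, holds the highest value of Itga6 (8445 CPM), Cd226 (2823 CPM) and P2ry12 (758 CPM) but the lowest of Pf4 (3791 CPM) and Gp1bb (23.3 CPM).

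Because no MYC member resembled these barcodes, the comparisons of the libraries over all members were made with and without them. Over all members, with UMIs summed per library, 5709 genes had at least 50 UMIs. A gene was called when its CPM differed at least 1.5-fold. By that measure 392 genes (6.87%) were higher and 1089 (19.1%) lower in the MYC members, and the median log2 ratio was -0.13. These 2 shares are the background for the list counts over all members below. Without the 4 barcodes 362 of 5550 (6.52%) were higher and 910 (16.4%) lower. Among early members alone 354 of 5264 (6.72%) were higher and 700 (13.3%) lower, and among late members 282 of 877 (32.2%) were higher and 415 (47.3%) lower. Late members without the 4 gave 222 of 569 (39%) higher and 137 (24.1%) lower. Scaling by the median of ratios, which moves all log2 ratios up by that median, gave 637 higher and 803 lower over all members, so higher genes were 44.2% of those called in place of 26.5%.

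Single barcodes also carried some calls. Without the 1 barcode of a library that held most of a gene's UMIs, the log2 ratio over all members missed the fold for Fcer1g (0.54) and Tubb1 (0.30), where that barcode was in the MYC library. It also did so for Mki67 (-0.45), Gata1 (-0.55), Gp1ba (-0.55), Itgb3 (-0.55) and Pdgfb (-0.38), where it was in the control.

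Adhesion receptors show what the 4 barcodes do to a comparison. Over all members 9 of 15 were lower and 0 higher in the MYC library, with a median log2 ratio of -0.85. Without the Malat1-rich barcodes 1 was lower and 2 higher, and the median was 0.18. In early members 0 of 10 passed in either direction, with a median of 0.04. Itga6 had 984 UMIs (683 CPM) in control and 209 UMIs (217 CPM) in MYC members, a log2 ratio of -1.65 (-1.87 to -1.43), which became 0.18 without the 4. Cd226 went from -2.26 to 0.00 and Pecam1, a junction receptor, from -1.60 to 0.18. Itgb3, the beta chain that pairs with Itga2b, went from -0.85 to -0.04, and Gp1ba from -1.001 to -0.06. Gp6 was -2.19 with them and -0.45 without them, and Gp5 was -1.22 and -0.45. Itga2, a collagen receptor chain, stayed past the fold at -1.20, though on 13 UMIs in MYC members.

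Clec1b, the podoplanin receptor, was -0.31 over all members (364 against 294 CPM) and 1.03 without the 4 barcodes. Thbs1, a granule glycoprotein, was -0.76 over all members (422 against 249 CPM) and 1.04 without them. The values without the 4 rested on single MYC barcodes, which held 35.7% of the MYC UMIs of Clec1b and 51.7% of those of Thbs1. With that barcode also left out, Clec1b was 0.45 and Thbs1 0.01, and neither passed the fold. Without the richest barcode of both libraries they were 0.57 and 0.86. In early members alone Clec1b was 0.18 and Thbs1 -0.35.

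The rule genes chose the members, and their ratios are given as a description. Pf4 stood at 8304 CPM in control and 9251 CPM in MYC members, and Itga2b at 1020 and 857 CPM. Gp9 had 184 UMIs in 37 of 52 control members (128 CPM) and 297 UMIs in 41 of 49 MYC members (309 CPM), a log2 ratio of 1.27. The Gp9 ratio was 1.15 in early members and 1.34 without the Malat1-rich barcodes. Gp1bb stood at 77.7 and 108 CPM.

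Agonist receptors, which sense ADP, thrombin, thromboxane and other signals, went both ways. Of 12 tested, 1 was higher and 5 lower (41.7%, against 19.1% of all genes) over all members, with a median of 0.04, and 1 higher and 2 lower of 10 without the 4 barcodes (median 0.09). F2r, a thrombin receptor, stood at 174 and 183 CPM. P2ry12 had 68 UMIs in 7 control members and 2 UMIs in 1 MYC member, a log2 ratio of -4.50 (-7.58 to -2.60). Since 65 of those control UMIs came from the Malat1-rich barcodes, 3 and 2 UMIs remained. P2ry1, the other ADP receptor, was lower with the 4 barcodes (-1.20) and without them (-0.95).

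Alpha granule cargo, the proteins platelets release, gave 1 higher and 3 lower of 13 over all members (median -0.42), shares near those of all genes (6.87% and 19.1%), and 3 higher and 2 lower of 11 without the 4 barcodes (median -0.10). Srgn, the proteoglycan that packs granules, was higher at 490 CPM in control and 818 CPM in MYC members, a log2 ratio of 0.74 (0.59 to 0.89), and 0.95 without the 4. Vwf, von Willebrand factor, stood at 350 and 278 CPM. Tgfb1, a growth factor linked to marrow fibrosis, stood at 495 and 381 CPM, a log2 ratio of -0.38 (-0.56 to -0.19). Neither Vwf nor Tgfb1 passed the fold. Among genes for granule assembly and release 0 were higher and 6 of 15 lower over all members, and 0 and 5 of 15 without the 4. Nbeal2, whose loss causes grey platelet syndrome, was -1.86 with the 4 barcodes and -0.86 without them.

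Cytoskeletal genes gave 1 higher and 5 lower of 26 over all members (median -0.23). The 19.2% lower was near the 19.1% of all genes. The counts were 1 and 2 of 25 without the 4 barcodes (median 0.05). Tubb1, the platelet tubulin, was the higher one, on 33 and 38 UMIs (0.79), and was 2.57 without the 4, on 9 and 38 UMIs. Tuba8, an alpha tubulin, was lower with the 4 (-1.14) and without them (-1.15), from 221 UMIs to 67. Signalling genes gave 2 higher and 10 lower of 30 over all members (median -0.37), and 5 higher and 7 lower of 29 without the 4 (median -0.03). Lat and Fcer1g, which relay collagen receptor signals, were the 2 higher ones. Lat stood at 124 CPM in control and 222 CPM in MYC members, a log2 ratio of 0.84 (0.55 to 1.14), and was -0.34 in all other kept barcodes. Fcer1g stood at 160 and 277 CPM, a log2 ratio of 0.79, and was 0.92 in all other kept barcodes. Syk, the kinase of the same receptor complex, was lower at 220 and 85.2 CPM, with log2 ratios of -1.37 over all members and -1.27 without the 4.

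**Figure D4:**
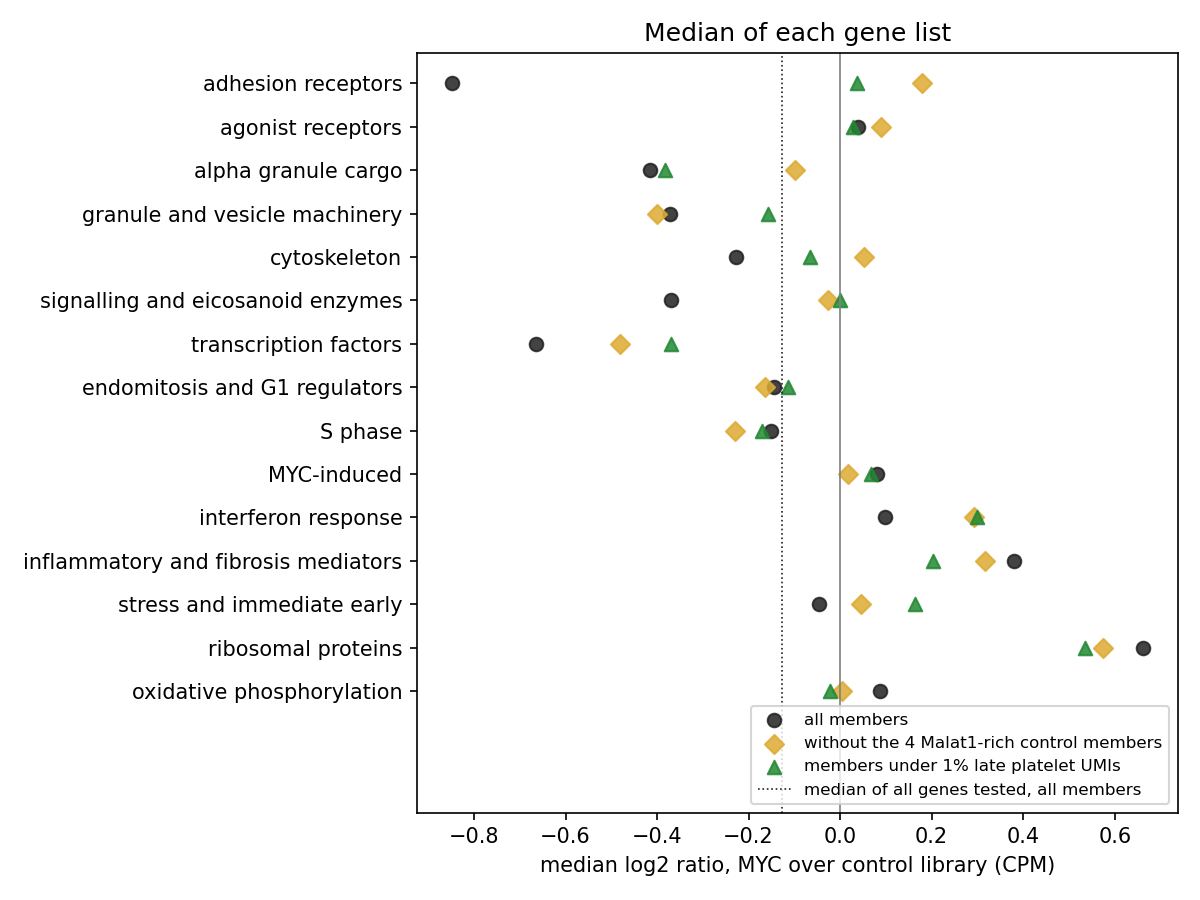
Each row is a gene list and each symbol its median log2 ratio of CPM, MYC over control library: circles for all members, diamonds without the 4 Malat1-rich control members and triangles for early members. Adhesion receptors move from -0.85 to 0.18 when the 4 barcodes are left out, ribosomal proteins stay above the other lists, and transcription factors stay left of the dotted line, the median of all genes over all members (-0.13).

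Megakaryocyte transcription factors stayed lower in the MYC members under each of these choices. Of 21 tested, 0 were higher and 13 lower over all members (median -0.66), 0 and 9 without the Malat1-rich barcodes (median -0.48), and 0 and 7 of 20 in early members (median -0.37). The background of lower genes in those 3 comparisons was 19.1%, 16.4% and 13.3%. Fli1, an ETS factor of the lineage, stood at 418 CPM (602 UMIs in 48 members) in the control and 188 CPM (181 UMIs in 34 members) in the MYC library. Its log2 ratio was -1.15 (-1.40 to -0.91) over all members, -0.97 without the 4 and -0.88 in early members. Meis1, a homeobox factor of stem cells and megakaryocytes, was -0.98, -1.04 and -1.03 in the same order. Gata2 was -1.07, -0.75 and -0.74, and Nfe2 -1.39, -0.71 and -0.71. Gata1 was -0.78 over all members but -0.36 and -0.25 in the other comparisons, and Lmo2, a partner of these factors, stood at 316 and 360 CPM.

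Lower levels of these factors were also seen in all other kept barcodes together, where the list's median was -0.54. That was further below 0 than in members without the 4 (-0.48) or in early members (-0.37), so the list as a whole was not particular to members. In all other kept barcodes Fli1 was -0.54, Meis1 -0.35 and Nfe2 -0.39. The Fli1 ratio in members was 0.61 lower than in those barcodes on the log2 scale (0.36 to 0.85 lower), and the Gata2 ratio 0.38 lower (0.08 to 0.68 lower). Without the Malat1-rich barcodes these differences were -0.43 for Fli1 (-0.68 to -0.18) and -0.06 for Gata2 (-0.37 to 0.26), so that of Gata2 from these barcodes rested on them. In early erythroid barcodes the ratios were 0.00 for Fli1 and 0.84 for Gata2. Members without the 4 differed from those barcodes by -0.97 for Fli1 (-1.42 to -0.53) and -1.58 for Gata2 (-1.97 to -1.20). Against stem or progenitor barcodes Gata2 differed by -0.22 (-0.60 to 0.16) and Fli1 by -0.72 (-1.02 to -0.42), and without the 4 by 0.10 (-0.28 to 0.49) and -0.54 (-0.85 to -0.24).

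Ribosomal protein transcripts were higher in the MYC members. Of 76 genes, 43 were higher and 0 lower over all members (median 0.66), 38 and 0 without the Malat1-rich barcodes (median 0.57), and 34 and 0 in early members (median 0.54). Per barcode, ribosomal protein genes made up a median of 18.5% of UMIs in early control members (2.22% to 25.04%) and 28.6% in early MYC members (3.68% to 34.9%). The interquartile ranges, from 14.0% to 21.0% and from 22.9% to 31.9%, did not overlap. In all other kept barcodes the list's median was 0.68, so the members followed the library as a whole. Reads of ribosomal protein genes can be shared with their processed copies.

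Cell growth genes moved less. Of 60 MYC-induced genes 2 were higher and 2 lower (median 0.08). Nme2, a nucleotide kinase, was higher at 502 CPM in control and 851 CPM in MYC members, a log2 ratio of 0.76, and 1.26 in all other kept barcodes. S phase genes gave 2 higher and 6 lower of 45 (13.3% lower, median -0.15), below the 19.1% of all genes. Without the 4 barcodes 2 were higher and 11 lower (median -0.23), and in early members 2 and 10 of 45, both above the background of lower genes there (16.4% and 13.3%). Pcna, the replication clamp, was lower at 293 and 179 CPM, a log2 ratio of -0.71, and -0.83 in all other kept barcodes. Endomitosis and G1 regulators gave 0 higher and 5 lower of 20 over all members, 0 and 6 of 20 without the 4 barcodes, and 0 and 5 of 20 in early members, beside backgrounds of 19.1%, 16.4% and 13.3% lower. Among the lower ones over all members were Mki67 (635 and 417 CPM), Top2a (540 and 272 CPM) and Cdk1 (124 and 62.4 CPM). Cyclins of the lineage did not pass: Ccnd2 stood at 374 and 370 CPM and Ccnd3 at 173 and 201 CPM. Oxidative phosphorylation genes gave 2 higher and 1 lower of 77 (median 0.09).

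Interferon response genes gave 4 higher and 3 lower of 16 (median 0.10), and 3 and 2 of 15 without the 4 barcodes (median 0.29). Ifitm1 was higher at 38.2 and 160 CPM, a log2 ratio of 2.07 (1.62 to 2.54), and was 1.92 in all other kept barcodes. Ifitm3 was higher at 479 and 934 CPM (0.96), against 0.91 in the others, and the immunoproteasome subunit Psmb8 at 155 and 285 CPM (0.87), against 0.78. Ifit1 was lower (49.2 and 8.32 CPM) with the Malat1-rich barcodes and 0.50 without them, on few UMIs. Of 10 tested mediators of inflammation and fibrosis 2 were higher and 1 lower (median 0.38). Nfkbia, an inhibitor of NF-kB, was higher on 26 and 48 UMIs and S100a6, a calcium-binding protein, on 66 and 77. Pdgfb, a growth factor for fibroblasts, was the lower one, on 63 and 27 UMIs with an interval of -1.35 to 0.03. Stress and immediate early genes gave 1 higher and 3 lower of 12.

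Serpina3g and Tfrc had the highest ratios among well-detected genes, named by a rule on level, spread over barcodes and counting interval. Serpina3g, a serine protease inhibitor with closely similar neighbours in a gene cluster, so that its counts are uncertain, had 166 UMIs in 29 of 52 control members (115 CPM) and 472 UMIs in 29 of 49 MYC members (491 CPM). Its log2 ratio was 2.09 (1.83 to 2.36), with 2.02 in early members and 2.003 without the Malat1-rich barcodes. It was 0.20 in all other kept barcodes, a difference of 1.89 (1.61 to 2.17), and 1.28 in stem or progenitor barcodes. In early erythroid barcodes the Serpina3g ratio was 1.81 (49 and 51 UMIs), a difference from members of 0.28 (-0.34 to 0.90). Per barcode, Serpina3g had a median of 62.5 CPM in early control members (0 to 444) and 376 CPM in early MYC members (0 to 2189). The ranges overlapped.

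Tfrc, the transferrin receptor that brings iron into cells, had 68 UMIs in 23 control members (47.2 CPM) and 186 UMIs in 23 MYC members (193 CPM), a log2 ratio of 2.04 (1.63 to 2.46). In all other kept barcodes Tfrc was lower in the MYC library, at 182 and 129 CPM (-0.50), a difference of 2.53 (2.13 to 2.94). In early erythroid barcodes the Tfrc ratio was -0.21 and in stem or progenitor barcodes 1.12. A single control barcode held 35.3% of the control UMIs of Tfrc. Erythroid markers, 10 genes all detected in both libraries, summed to 966 CPM in control members (227 to 11787 per barcode, median 739) and 2035 CPM in MYC members (67.2 to 63306, median 757). A single MYC barcode held 1252 of the 1958 MYC UMIs of these markers, and without it the MYC level was 749 CPM. Without the barcodes that carry markers of another lineage the Tfrc ratio was 1.59.

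The other higher genes by that rule were Khk, Smim14, Ubb, Ssr4, Rbm3, Snhg4, Tspo, Rpl10, Rps18 and Rplp0, with ratios of 1.40 down to 1.14. All 10 were above 0 in all other kept barcodes too, where 3 of them (Rbm3, Tspo and Rps18) were at least as high as in members. Rbm3, a cold-inducible RNA-binding protein, was 1.21 in members and 1.34 there, and Ubb, a ubiquitin gene, 1.26 and 1.20. Snhg4, a non-coding RNA, was 1.20 and 0.77. Smim14, a small membrane protein, was 1.30 in members and 0.26 there, a difference of 1.04 (0.74 to 1.34).

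The lower genes by that rule were Tnik, Ccdc88a, Hist1h2ae, Taok1, Cd44, Ubash3b, Prc1, Ripor2, Malat1, Ogt, Syk and Igf1r, from -2.23 to -1.29. Without the Malat1-rich barcodes 11 of the 12 stayed past the fold, and the other, Malat1 itself, went from -1.40 to -0.39. Several moved toward 0, among them Ccdc88a, an actin-binding protein, from -1.89 to -0.68, and Tnik, a kinase, to -1.25. Hist1h2ae, a replication histone with near-identical copies in its cluster, did not depend on them. It had 403 UMIs in 30 control members (280 CPM) and 73 UMIs in 21 MYC members (75.9 CPM), a log2 ratio of -1.88 (-2.26 to -1.52), and -1.97 without them. In all other kept barcodes it was -0.12, a difference of -1.76 (-2.12 to -1.40). Prc1, which bundles the spindle in cell division, was -1.42 with and -1.50 without the 4, and -0.33 in all other kept barcodes.

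**Figure D5:**
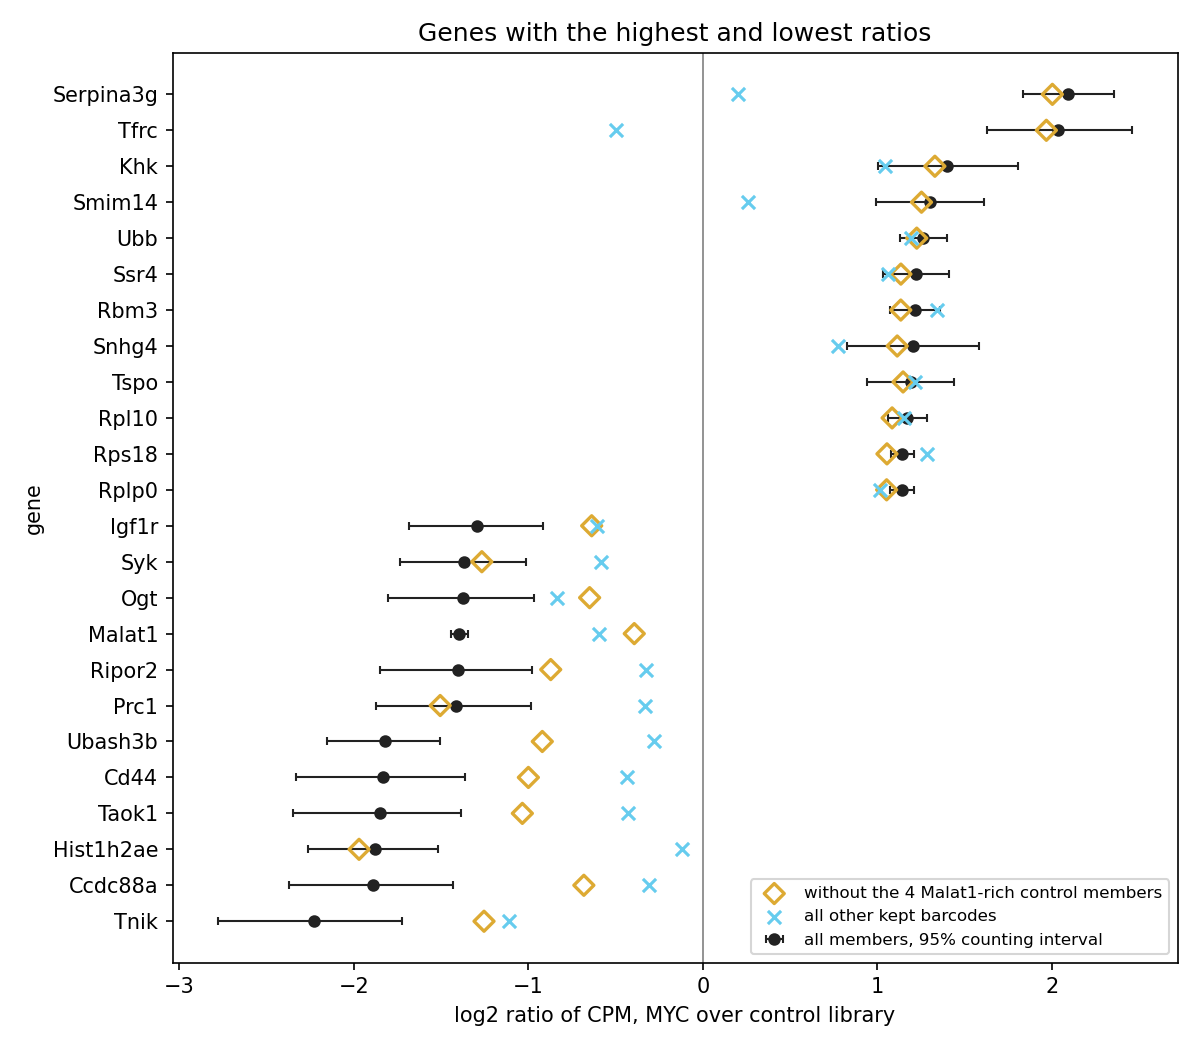
Each row is a gene; the black point is its log2 ratio of CPM over all members with its 95% counting interval, the open diamond the ratio without the 4 Malat1-rich control members and the cross the ratio in all other kept barcodes. The diamonds of Serpina3g (2.003), Tfrc (1.97), Hist1h2ae (-1.97) and Prc1 (-1.50) lie close to the black points, while that of Ccdc88a moves from -1.89 to -0.68.

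Markers of other lineages were present in members at different levels in the libraries. Results without the barcodes over marker limits are given at the end, and beyond that the part of these markers in the results was not tested. Neutrophil markers, 11 genes all detected, summed to 4599 CPM in control members (796 to 63794 per barcode) and 3733 CPM in MYC members (723 to 46196). Without 1 control barcode that held 56.4% of them the control level was 2092 CPM, and without its own richest barcode the MYC level was 3109 CPM. The per-barcode medians, 2003 and 4165 CPM, went against the sums. Elane (12.5 and 305 CPM), Mpo, Prtn3 and Retnlg were higher in MYC members, and the other genes of the list were lower. Both sums were far below the 140667 and 178932 CPM of all other kept barcodes. Macrophage markers summed to 13.2 and 87.3 CPM, with C1qa and Cd5l at 0 in the control, and the MYC level was 49.3 CPM without its richest barcode. B lineage markers were 507 and 248 CPM, with Cd79a, Ebf1, Ms4a1 and Vpreb3 at 0 in the MYC members. Dendritic markers were 407 and 177 CPM, and 298 and 155 CPM without the richest barcode of each library. Stem or progenitor markers were 365 and 246 CPM, with per-barcode medians of 295 and 142 CPM, but the genes went both ways. Meis1 (175 and 88.4 CPM), Slamf1 (72.1 and 21.8 CPM), Ly6a, Hlf and Mecom were lower in MYC members. Cd34 was higher (9.71 and 55.1 CPM, in 7 and 13 members), Kit stood at 48.6 and 54.1 CPM, and Procr had 0 UMIs. Basophil or mast markers were 402 and 62.4 CPM, with a median of 0 per barcode in both libraries. A single control barcode held 505 of the 579 control UMIs, and without it the control level was 51.6 CPM. Without its own richest barcode the MYC level was 22.3 CPM. Nkg7, a granule membrane protein best known from killer cells, was found in 30 of 37 early control and 21 of 34 early MYC members but in 1 of 15 and 0 of 15 late ones. At an equal depth of 1000 UMIs the expected numbers were 4.81 of 37 and 3.90 of 34 early members, and 0.274 of 15 and 0 of 15 late ones. Cd3 UMIs were found in 0 control and 1 MYC member. Limits on marker UMIs of another lineage, Nkg7 left aside, were exceeded by 8 control and 7 MYC members. No member had a Scrublet doublet score over 0.2, the highest being 0.122 and 0.130.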

How the data were processed

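The deposited files hold raw UMI counts, and per the file headers the authors' counting tool was Cell Ranger 6.0.0; the submitters' processing notes also name Seurat, GRCm38 and mm10. The labels give a Chromium 3′ kit (v2). Each library's 32286 features included 1 named MYC. Of these, 32235 (99.8%) matched GENCODE vM21 by identifier.

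UMIs of the members were summed per library and divided by their total to give CPM, for genes with at least 50 UMIs over both libraries, with a 0 set to 3 counts. A difference was called at 1.5-fold. Intervals are exact Poisson (levels), exact conditional binomial (ratios), Clopper-Pearson (shares) and Newcombe (difference of shares). The ratio code was tested on simulated counts. No test was possible with a single library in each group. Python 3.11.15, scipy 1.17.1 and scanpy 1.11.5 were used. Early erythroid barcodes had at least 3 UMIs of Klf1, Car1 and Epor with under 20% haemoglobin UMIs, and stem or progenitor barcodes had Kit and Hlf or Mecom; members were left out of both.

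Genes named by rule had a mean of at least 100 CPM, an interval excluding equality, UMIs in at least 25% of members where higher, at most 25% of their UMIs in 1 barcode there and the same direction by the mean of per-barcode CPM. The 12 highest and 12 lowest were taken, leaving out rule and marker genes, mitochondrial genes, Xist, Tsix and Y-linked genes (other genes of the X chromosome stayed in), and those of haemoglobins, immunoglobulins and T cell receptors. The members and lists were chosen with earlier results of these data known. Doublets and free RNA were not removed. Alternatives were other limits, scalings, filters and subsets of members.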

Additional observations from a re-analysis of the deposited data

How the results depend on the processing

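Each library was alone in its group and members numbered 52 and 49, so depth and single deep barcodes limit every ratio. No paired analysis was possible because each group had 1 library. Of 24 alternatives, 5 were chosen after seeing the data: early members, late members, leaving out the Malat1-rich barcodes, the marker limits without Nkg7, and a fixed doublet score of 0.2, since Scrublet's automatic limit called 558 control barcodes and none in the MYC library. For single genes, leaving out the barcode of each library richest in that gene was also added, as were late members without the Malat1-rich. The planned run with automatic calls was replaced by the fixed score. The difference in the share of members lay between 0.00768 and 0.109 points over 14 alternatives. The median ratios of transcription factors (below 0 in 23 of 23) and ribosomal proteins (above 0 in 24 of 24) kept their direction in all alternatives that gave a value. Where values moved, the cause was not tested unless the alternative tests fewer or other genes by construction.

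Counts of higher and lower genes were 640 and 1744 by the mean of per-barcode CPM, 664 and 1886 with at least 20 UMIs, 146 and 225 with at least 200 UMIs, 82 and 389 at a fold of 2, and 78 and 13 when each member was thinned to 1000 UMIs, which left 216 genes. Scaling by the median of ratios gave 637 higher genes. Early members alone gave 700 lower genes and late members alone 415.

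The other values are median log2 ratios of lists, or log2 ratios of genes. With the mean of per-barcode CPM, adhesion receptors were -0.17, endomitosis and G1 regulators -0.51, alpha granule cargo 0.12, oxidative phosphorylation 0.19 and Thbs1 0.048. With thinning, MYC-induced genes were 0.19, signalling genes -0.048, Itgb3 0.19, Thbs1 0.13 and all genes 0.34. With the median of ratios, MYC-induced genes were 0.21, oxidative phosphorylation 0.21 and ribosomal proteins 0.79. With at least 200 UMIs, interferon response genes were 0.74. With totals that left out the 20 most abundant genes, MYC-induced genes were -0.0076 and oxidative phosphorylation -0.00242. Without the 5 richest barcodes, S phase genes were 0.093, oxidative phosphorylation 0.24 and ribosomal proteins 0.80. With at least 5 UMIs of the partner genes, S phase genes were -0.51.

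In early members, ribosomal proteins were 0.54, transcription factors -0.37, oxidative phosphorylation -0.022, signalling genes -2.6e-05 and Pecam1 0.043. In late members, MYC-induced genes were 0.36, adhesion receptors -1.90, alpha granule cargo 0.075, endomitosis and G1 regulators -0.72, granule machinery -1.14, oxidative phosphorylation 1.25, ribosomal proteins 2.11, signalling genes -0.75 and transcription factors -2.43. In late members without the Malat1-rich, adhesion receptors were 0.04, oxidative phosphorylation 0.57, ribosomal proteins 1.39 and transcription factors -1.76 (4 genes). Without the Malat1-rich barcodes, adhesion receptors were 0.18, alpha granule cargo -0.10, oxidative phosphorylation 0.0037, signalling genes -0.027, Cd226 0.0049, Itga6 0.18, Pecam1 0.18 and Thbs1 1.04.

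Without barcodes with markers of another lineage, MYC-induced genes were 0.37, adhesion receptors -1.57, agonist receptors -0.80, granule machinery -0.89, alpha granule cargo -0.70, the cytoskeleton -0.50, interferon response genes 0.87, oxidative phosphorylation 0.40, ribosomal proteins 1.07, signalling genes -0.77 and transcription factors -1.26 (26 control and 17 MYC members left out). Of the members left out, 25 control and 17 MYC members were early, so the share of late members rose in both libraries. The part of that change in these values was not tested. The T or NK limit, which counts Nkg7, was exceeded by 22 control and 12 MYC members. With Nkg7 not counted, MYC-induced genes were 0.20, oxidative phosphorylation 0.19 and ribosomal proteins 0.75.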
